A study of Mus musculus with 7 samples.

Results

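Iron, zinc and copper handling genes were examined in 2 populations of mouse bone marrow cells sorted without culture. The set held the SLC11, SLC30, SLC39 and SLC40 metal carriers together with 21 genes named one by one (transferrin and its receptors, ferritins, haem oxygenases, iron regulatory proteins, STEAP reductases, ceruloplasmin, hepcidin, Hfe, metallothioneins, Mtf1 and the copper ATPases). A gene entered by its symbol in the array's annotation, on a probe set with 1 symbol and not by its values. This gave 46 of the 18193 genes on the array, 27 of them SLC carriers. Trf and Ftl1 had no probe set with a single symbol and have no value here. Of the 46 genes, 42 passed a filter for dim genes (at least 3 arrays above their own 40th percentile), and Hamp, Slc30a8, Slc39a2 and Slc39a12 were set aside by it.

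The study hybridised amplified RNA from sorted cells to 7 Affymetrix Mouse 430 2.0 arrays. The first population was negative for CD45 and lineage markers, positive for CD54 and BP1 and negative for CD31. It is labelled bone marrow stromal cells and has 4 arrays, stromal 1 to 4. The second, likewise without CD45 and lineage markers, was sorted as CD31-positive and CD54-negative. It is labelled bone marrow endothelial cells and has 3 arrays, endothelial 1 to 3. All mice were wild type C57Bl/6J aged 6 to 12 weeks, untreated as far as the labels state, and each sample came from 1800 to 10000 cells. Whether cells of several mice were pooled is not stated, so the p-values measure the spread between these samples, which may be technical. All values are on the log2 scale of the deposited table, and a difference is stromal minus endothelial. A difference was called at an adjusted p under 0.05 (limma, Benjamini-Hochberg over all 13995 genes tested) and a size of at least 1 on the log2 scale.

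Iron enters most cells bound to transferrin through the transferrin receptor, is reduced in endosomes by STEAP enzymes, crosses into the cytosol through divalent metal carriers, and is stored in ferritin or leaves through ferroportin (Slc40a1), after which ceruloplasmin or hephaestin oxidises it. Zinc is moved into the cytosol by ZIP carriers (Slc39a) and out of it, across the plasma membrane or into organelles, by ZnT carriers (Slc30a). In the marrow these routes are best known from red cell precursors, which take up iron, and from macrophages, which return it.

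The labels were checked against marker genes. All 7 stromal markers were higher on the stromal arrays, where their mean level per array lay between 13.27 and 13.43, against 5.37 to 6.46 on the endothelial arrays. Of 8 endothelial markers, Kdr, Plvap and Pecam1 were higher on the endothelial arrays and Stab2 passed neither way, while Cdh5, Emcn, Tek and Tie1 were too dim to test. All 7 megakaryocyte and platelet markers were higher on the endothelial arrays, with a mean of 14.06 to 14.22 per array there against 5.67 to 8.89 on the stromal arrays, the upper value on stromal 4. Neutrophil and B lineage markers were also called toward the endothelial side, in 6 of 10 and in 4 of 7 tested, and Ebf1 of the B lineage list, which reticular stroma also expresses, toward the stromal side. The neutrophil mean lay between 7.59 and 9.90 on the stromal arrays, against 9.24 to 12.44 on the endothelial arrays, and the B lineage mean between 6.82 and 7.70, against 7.52 to 9.51. The part of such cells in the differences below was not tested. The word endothelial is therefore used below only as the label. The antigens used for sorting had differences in the direction of their gates, at 5.19 for Icam1 (CD54), 6.93 for Enpep (BP1) and -3.48 for Pecam1 (CD31). Ptprc, which encodes CD45, lay at 4.91 to 7.42 on the stromal arrays, against 8.63 to 10.94 on the endothelial arrays, although both populations were sorted without CD45. Hybridisation controls, which report spiked-in label, averaged 11.33 (endothelial 2) and 11.37 (endothelial 3), while the 5 remaining arrays had 9.51 to 9.75. A fit with that split as a block compares endothelial 1 alone with the stromal arrays. In such bulk samples fewer cells of a type and less RNA per cell cannot be told apart.

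Most called metal-handling genes were higher in the stromal population. Of the 42 genes tested, 20 were called higher on the stromal arrays (47.6%), beside 30.9% of all genes tested. Only Tfrc, Slc30a1 and Slc39a4 were called higher on the endothelial arrays (7.14%), beside 16.1% of all genes, and 19 were not called. The median difference was 0.99, beside 0.19 over all genes tested. Every stromal array lay above every endothelial array in 24 genes, beside 35.7% of all genes, and the opposite order held in 10, beside 32.7%. Stromal calls were 87.0% of the calls among these genes and 65.7% among all genes. They were 76.2% and 52.0% after a second quantile normalization, and 68.2% and 57.8% after cyclic loess. Those scalings moved the median of all genes to -0.12 and -0.03.

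**Figure D1:**
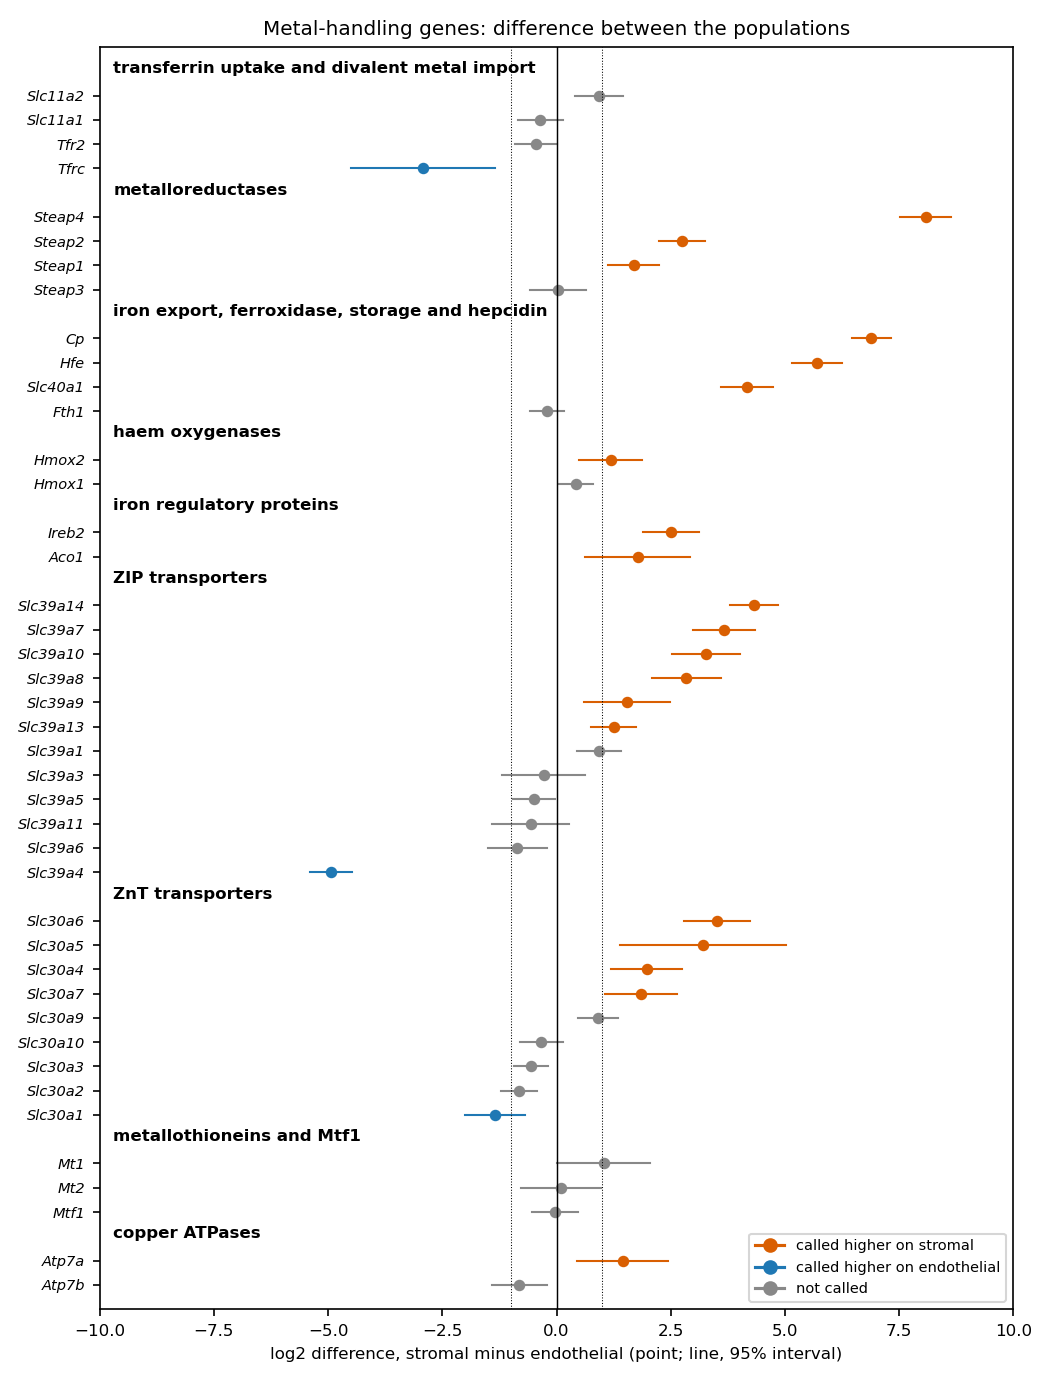
Difference in log2 expression value, stromal minus endothelial, for the 42 genes tested, grouped by role. Points are the fitted differences and lines their 95% intervals from limma (4 stromal and 3 endothelial arrays), and dotted lines mark differences of 1 in either direction. The differences run from 8.08 for Steap4 to -4.94 for Slc39a4, and 20 called genes lie to the right against 3 to the left.

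Among genes for iron uptake, the transferrin receptor gene went against the main direction. Tfrc, whose product takes up transferrin-bound iron, lay at 7.74, 6.29, 4.94 and 5.69 on stromal 1 to 4, against 9.21, 10.03 and 8.02 on endothelial 1 to 3. The populations did not overlap, but both were spread widely, with stromal 1 and endothelial 3 only 0.28 apart. Tfrc was 7.58-fold lower on the stromal arrays (a difference of -2.92 ± 0.69, SE, limma adjusted p = 0.00627). With endothelial 1 alone against the stromal arrays the difference was -3.04 and the call was missed (adjusted p = 0.0521). Red cell precursors are rich in this receptor, and 2 of 5 erythroid markers tested, Alas2 and Epor, were also higher on the endothelial arrays. Klf1, Ermap and Slc4a1 had overlapping arrays and were not called. The mean of the 7 erythroid markers on the array was 6.96, 5.94, 5.51 and 5.93 on stromal 1 to 4. It was 8.29, 6.51 and 6.86 on endothelial 1 to 3. Both this mean and Tfrc were highest on stromal 1 among the stromal arrays. Among the endothelial arrays Tfrc was highest on endothelial 2, where the mean was lowest. Hba-a1 and Rhag were too dim to test. The part of such cells in the Tfrc difference was not tested.

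The other uptake genes were not called. Slc11a2, which encodes the divalent metal transporter DMT1 that carries iron out of endosomes, lay at 9.24, 9.22, 9.28 and 9.49 on stromal 1 to 4, against 8.71, 8.52 and 7.88 on endothelial 1 to 3. All stromal arrays were above all endothelial arrays, and the difference of 0.94 (adjusted p = 0.00735) fell short of the required size. It was 1.1 without endothelial 1 and 1.01 without endothelial 2, and then passed. It was 0.29 after a second quantile normalization (adjusted p = 0.349), 0.30 after cyclic loess (adjusted p = 0.341) and 0.60 with endothelial 1 alone (adjusted p = 0.123). Slc11a1, which encodes the phagosomal metal carrier NRAMP1 of macrophages and neutrophils, lay at 6.14, 6.38, 6.22 and 6.51 on the stromal arrays, against 6.77, 6.28 and 6.96 on the endothelial arrays. The arrays of the populations overlapped (a difference of -0.36, adjusted p = 0.164). Tfr2, the second transferrin receptor and an iron sensor of liver cells, averaged 7.92 ± 0.24 and 8.37 ± 0.22 on the stromal and endothelial arrays (SD, n = 4 and n = 3), a difference of -0.45 (adjusted p = 0.0799). After a second quantile normalization and after cyclic loess the Tfr2 difference was -1.06 and -1.07 and passed. Its other probe set differed by 0.18 and was not called.

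Several STEAP proteins reduce ferric iron and cupric copper, and 3 of the 4 STEAP genes were higher in the stromal population (75%, beside 30.9% of all genes). Steap4, a family member known from adipose tissue, lay at 12.93, 13.05, 12.88 and 13.37 on stromal 1 to 4, against 4.83, 5.46 and 4.65 on endothelial 1 to 3. The stromal arrays stood far above the endothelial ones, whose mean was under the arrays' 40th percentile, so no fold is given for the difference of 8.08 ± 0.24 (SE, adjusted p = 2.08e-07). A further Steap4 probe set differed by -0.42 and did not pass, and the mean of both gave 3.83. Steap2 lay at 8.56, 8.67, 8.26 and 9.02 on the stromal arrays, against 5.96, 5.69 and 6.02 on the endothelial arrays. The stromal arrays stood clear of the endothelial ones, by a difference of 2.74 (adjusted p = 1.89e-05). With the mean of its 5 probe sets, 3 of which were below the dim filter, the Steap2 difference was 0.99 and short of the required size. Steap1 was higher by 1.69 (adjusted p = 5.20e-04), with an endothelial mean at the floor of the arrays, and by 1.01 with the mean of its probe sets. Steap3, the endosomal ferrireductase of red cell precursors, lay at 7.43, 7.83, 7.76 and 7.21 on the stromal arrays, against 7.93, 7.0 and 7.64 on the endothelial arrays. The populations overlapped, and Steap3 was not called (a difference of 0.04, adjusted p = 0.912).

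Both main genes for iron release were higher in the stromal population, beside 30.9% of all genes tested. Slc40a1, which encodes ferroportin, the only iron exporter known in mammals, lay at 12.86, 12.69, 12.64 and 13.01 on stromal 1 to 4, against 8.57, 9.15 and 8.20 on endothelial 1 to 3. The groups were well apart, and the stromal level was 17.9-fold higher (a difference of 4.16 ± 0.25, SE, adjusted p = 3.54e-06). Its other probe set differed by 2.19. Cp, which encodes the copper-containing ferroxidase ceruloplasmin, lay at 13.11, 12.88, 13.06 and 12.85 on the stromal arrays, against 5.82, 6.25 and 6.19 on the endothelial arrays. The endothelial mean of 6.08 was below the median of those arrays, so only the difference of 6.89 ± 0.18 (SE, adjusted p = 1.31e-07) is given. Of its 8 probe sets, 7 passed the filter and all 7 were called in that direction, at 5.47 to 7.50. Macrophages also express ferroportin. Of 7 macrophage and monocyte markers tested, Cd14 and Vcam1 were higher on the stromal arrays and Csf1r, Cd68 and Lyz2 on the endothelial arrays, and C1qb, Mrc1 and Cd163 were too dim to test. The mean of the 10 markers lay between 6.24 and 6.91 on the stromal arrays, and between 6.45 and 7.41 on the endothelial arrays. Without Vcam1, which is also a gene of marrow stroma, the mean of the other 9 was 5.48 to 6.21 on the stromal arrays, against 6.65 to 7.36 on the endothelial arrays, with no overlap. The part of such cells in the Slc40a1 difference was not tested.

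Hfe, whose product binds the transferrin receptor and takes part in hepcidin control in the liver, lay at 10.90, 10.89, 10.41 and 11.11 on stromal 1 to 4, against 5.03, 4.84 and 5.48 on endothelial 1 to 3. The endothelial values were at the floor of the arrays, and the difference was 5.71 ± 0.24 (SE, adjusted p = 5.91e-07). The second Hfe probe set differed by 3.11. Hamp, the gene of hepcidin itself, the hormone that removes ferroportin from the cell surface, was too dim to test, at 4.64 to 4.87 on the stromal and 4.79 to 5.77 on the endothelial arrays. Fth1, which encodes the heavy chain of ferritin, the iron store of the cell, lay at 13.99, 14.06, 14.08 and 14.01 on the stromal arrays, against 14.40, 14.25 and 14.08 on the endothelial arrays. Both populations were close to the upper end of the arrays' range, where differences are compressed, and Fth1 was not called (a difference of -0.21, adjusted p = 0.276). Both Fth1 probe sets carry a suffix for matches to several transcripts, and their differences had opposite signs, -0.21 and 0.19.

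**Figure D2:**
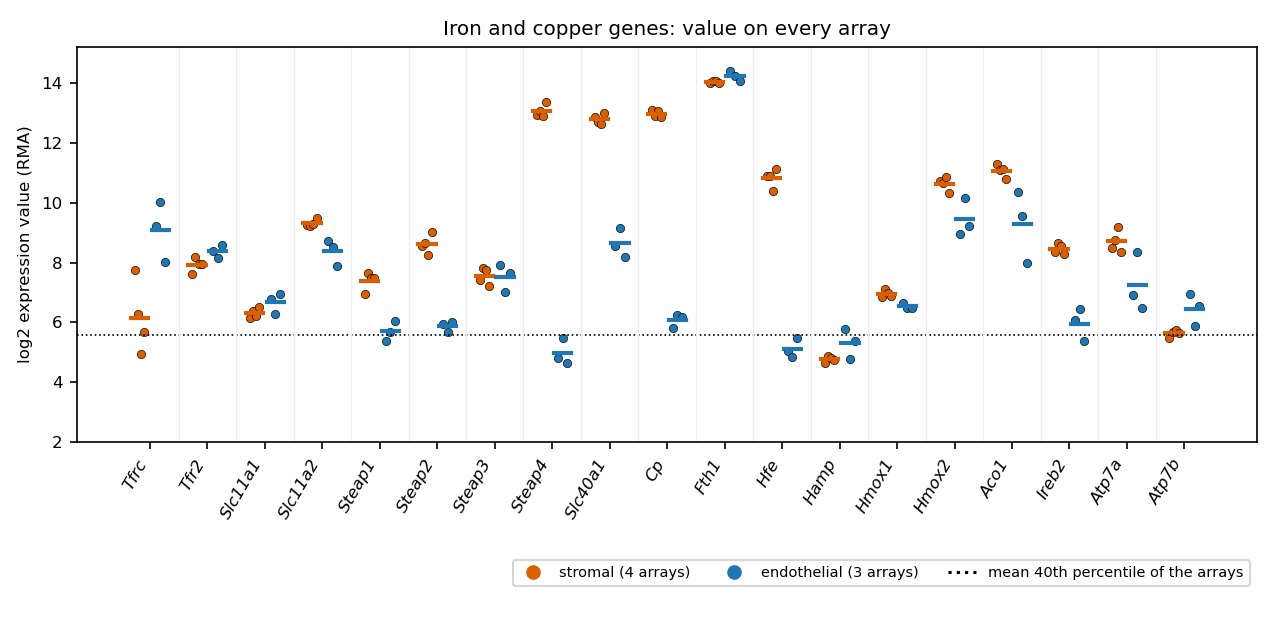
Log2 expression value of each iron and copper gene on every array. Points are arrays (stromal left, endothelial right for each gene), short bars are group means, and the dotted line is the mean 40th percentile of the arrays. Steap4, Cp, Slc40a1 and Hfe are separated by wide gaps, Fth1 is high in both populations, and Tfrc has its higher values on the endothelial arrays.

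Haem oxygenases open the haem ring and free its iron. Hmox1, the inducible form, lay at 6.86, 7.11, 7.0 and 6.89 on stromal 1 to 4, against 6.65, 6.48 and 6.48 on endothelial 1 to 3. The populations did not overlap, but the difference of 0.43 (adjusted p = 0.0439) was below the required size. Hmox2, the constitutive form, was 2.28-fold higher on the stromal arrays (10.64 ± 0.22 against 9.45 ± 0.62, adjusted p = 0.00828). Its difference of 1.19 became 0.95 without endothelial 1, 0.77 after a second quantile normalization and 0.75 after cyclic loess, each short of the required size.

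Both iron regulatory protein genes (100%, beside 30.9% of all genes) were higher in the stromal population. Their products bind iron-responsive elements in messenger RNAs, where they block translation of ferritin and stabilise the message of the transferrin receptor when iron is scarce. Ireb2, which encodes iron regulatory protein 2, lay at 8.34, 8.65, 8.54 and 8.30 on stromal 1 to 4, against 6.07, 6.44 and 5.37 on endothelial 1 to 3. The populations were well apart, with a difference of 2.50 ± 0.27 (SE, adjusted p = 9.91e-05). Aco1, which encodes cytosolic aconitase, the enzyme that turns into iron regulatory protein 1, lay at 11.29, 11.09, 11.12 and 10.77 on the stromal arrays, against 10.37, 9.54 and 7.97 on the endothelial arrays. The endothelial arrays were widely spread, and endothelial 1 came within 0.40 of the lowest stromal array. The 3.42-fold difference passed with all arrays (adjusted p = 0.0131), and a second Aco1 probe set differed by 2.74. Without endothelial 3 the difference was 1.11, with endothelial 1 alone it was 0.70 on the log2 scale (adjusted p = 0.299), and after cyclic loess 1.37 (adjusted p = 0.0503).

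ZIP carriers raise zinc in the cytosol, and the family moved in both directions. Of 14 ZIP genes on the array 12 were tested, and 6 were called toward the stromal side (50%, beside 30.9% of all genes), 1 toward the endothelial side (8.33%, beside 16.1%). Slc39a14, whose product also carries iron not bound to transferrin and manganese, lay at 10.74, 10.44, 10.37 and 10.78 on stromal 1 to 4, against 6.35, 5.86 and 6.60 on endothelial 1 to 3. The stromal level was 19.9-fold higher (a difference of 4.32 ± 0.23, SE, adjusted p = 1.87e-06). This rests on 1 of 4 probe sets, since the other 3 differed by -0.25 to 0.51 and were not called, and the mean of all 4 gave 1.18. Slc39a8, a close relative that also carries manganese and iron, lay at 7.56, 7.97, 7.56 and 8.05 on the stromal arrays, against 5.67, 4.87 and 4.29 on the endothelial arrays. Its endothelial mean was at the floor, and the difference was 2.84 (adjusted p = 1.59e-04). A second Slc39a8 probe set, below the dim filter, differed by -0.49, and the mean of both gave 1.17.

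Several ZIP genes of internal membranes were among those higher in the stromal population. Slc39a7, which encodes ZIP7, the carrier that releases zinc from the endoplasmic reticulum, lay at 12.43, 12.44, 12.11 and 12.96 on stromal 1 to 4, against 8.24, 9.18 and 9.04 on endothelial 1 to 3. It was 12.7-fold higher on the stromal arrays (a difference of 3.66 ± 0.29, SE, adjusted p = 1.92e-05). Slc39a13, which encodes ZIP13 of the Golgi and vesicles and is needed for connective tissue in mice, was higher by 1.25 (8.67 ± 0.17 against 7.42 ± 0.33, adjusted p = 0.00135). Slc39a9, a Golgi ZIP gene, was higher by 1.54 (9.14 ± 0.28 against 7.61 ± 0.95, adjusted p = 0.0110). Both of the last differences lost their call after a second quantile normalization (0.63 for Slc39a13 and 1.01 for Slc39a9) and after cyclic loess (0.63 and 0.88). A further Slc39a9 probe set differed by -0.98, and the mean of all its probe sets gave 0.14. Slc39a10, a plasma membrane ZIP gene, lay at 9.88, 9.92, 9.71 and 10.58 on the stromal arrays, against 6.07, 7.21 and 6.99 on the endothelial arrays. It was 9.63-fold higher in the stromal population (adjusted p = 6.81e-05), while its second probe set, below the dim filter, differed by 0.42 and the mean of both gave 1.84.

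Slc39a4 showed the opposite pattern. It encodes ZIP4, best known as the carrier that absorbs dietary zinc in the intestine. It lay at 4.89, 5.37, 5.32 and 5.37 on stromal 1 to 4, against 10.22, 9.97 and 10.35 on endothelial 1 to 3. The stromal values were at the floor and the 3 endothelial arrays lay within 0.38 of each other. The difference was -4.94 ± 0.20 (SE, adjusted p = 4.99e-07), and it lay between -5.31 and -4.83 over 18 alternatives. Only 1 probe set reports this gene. The part of megakaryocytes and platelets in the difference was not tested.

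The remaining ZIP genes were not called. Slc39a1, a widely expressed plasma membrane carrier, was higher by 0.93 (11.18 ± 0.28 against 10.25 ± 0.19, adjusted p = 0.00511), just short of the required size. It was 1.02 without stromal 1 and 1.0 without endothelial 2, and passed in both. Over 18 alternatives the Slc39a1 difference ran from 0.61 to 1.15, and it passed in 5 of them. Slc39a3 and Slc39a6, also of the plasma membrane, differed by -0.28 and -0.86, and in both another probe set pointed the other way, at 1.20 for Slc39a3, which was called, and 0.82 for Slc39a6. The Slc39a6 difference reached -1.07 without endothelial 1 and -1.14 after cyclic loess and then passed. It was -0.54 without endothelial 3, -0.44 with endothelial 1 alone and -0.36 with the mean of its probe sets. Slc39a5 and Slc39a11 differed by -0.49 and -0.56. Over 17 alternatives the Slc39a11 difference ran from -1.04 to 0.072, and it passed in 1 of them. Slc39a2 was too dim to test, at 5.09 to 5.72 on the stromal and 5.17 to 5.66 on the endothelial arrays, as was Slc39a12, known from brain, at 3.58 to 3.68 and 4.86 to 5.10.

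ZnT carriers lower zinc in the cytosol. Of 9 tested, 4 were called toward the stromal side (44.4%, beside 30.9% of all genes) and 1 toward the endothelial side (11.1%, beside 16.1%). Slc30a5 and Slc30a6 encode ZnT5 and ZnT6, which pair in the early secretory pathway to supply zinc to enzymes such as alkaline phosphatase. Slc30a6 lay at 9.44, 9.13, 8.89 and 9.83 on stromal 1 to 4, against 6.05, 5.21 and 6.18 on endothelial 1 to 3. The populations were well apart, with a difference of 3.51 ± 0.31 (SE, adjusted p = 3.51e-05). Slc30a5 lay at 10.11, 9.98, 9.95 and 10.34 on the stromal arrays, against 6.86, 8.93 and 4.86 on the endothelial arrays. The stromal arrays were tight and the endothelial arrays differed by 4.07 among themselves. The difference was 3.21 ± 0.79 (SE, adjusted p = 0.00764), and with endothelial 1 alone it was 3.23 and not called (adjusted p = 0.0663). Slc30a7, a further ZnT gene of the Golgi, was higher by 1.85 (9.53 ± 0.15 against 7.68 ± 0.80, adjusted p = 0.00208), and by 4.52 on its other probe set. It was 1.20 after cyclic loess. Slc30a4, a ZnT gene of endosomes and vesicles, was 3.92-fold higher on the stromal arrays (8.75 ± 0.21 against 6.77 ± 0.75, adjusted p = 0.00136).

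Slc30a1, the main zinc exporter of the plasma membrane and a known target of the zinc sensor MTF1, was the ZnT gene called in the other direction. It lay at 9.43, 9.85, 9.75 and 10.56 on stromal 1 to 4, against 11.45, 11.36 and 10.94 on endothelial 1 to 3. All endothelial arrays were above all stromal arrays, with stromal 4 the nearest. The stromal level was 2.56-fold lower (a difference of -1.35 ± 0.29, SE, adjusted p = 0.00382), and the second probe set differed by -1.14.

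Of the remaining ZnT genes, Slc30a9, reported as a mitochondrial carrier, was higher by 0.90 (adjusted p = 0.00370), and Slc30a2, known from the mammary gland, and Slc30a3, known from synaptic vesicles, were lower by 0.82 and 0.56 (differences of -0.82 and -0.56, adjusted p = 0.00372 and 0.0168). None of these reached the required size. Slc30a3 passed at -1.15 after a second quantile normalization and at -1.12 after cyclic loess. Slc30a10, a manganese exporter, differed by -0.33 (adjusted p = 0.176). Slc30a8, the zinc carrier of insulin granules, was too dim to test, at 4.11 to 4.37 on the stromal and 4.40 to 4.90 on the endothelial arrays.

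**Figure D3:**
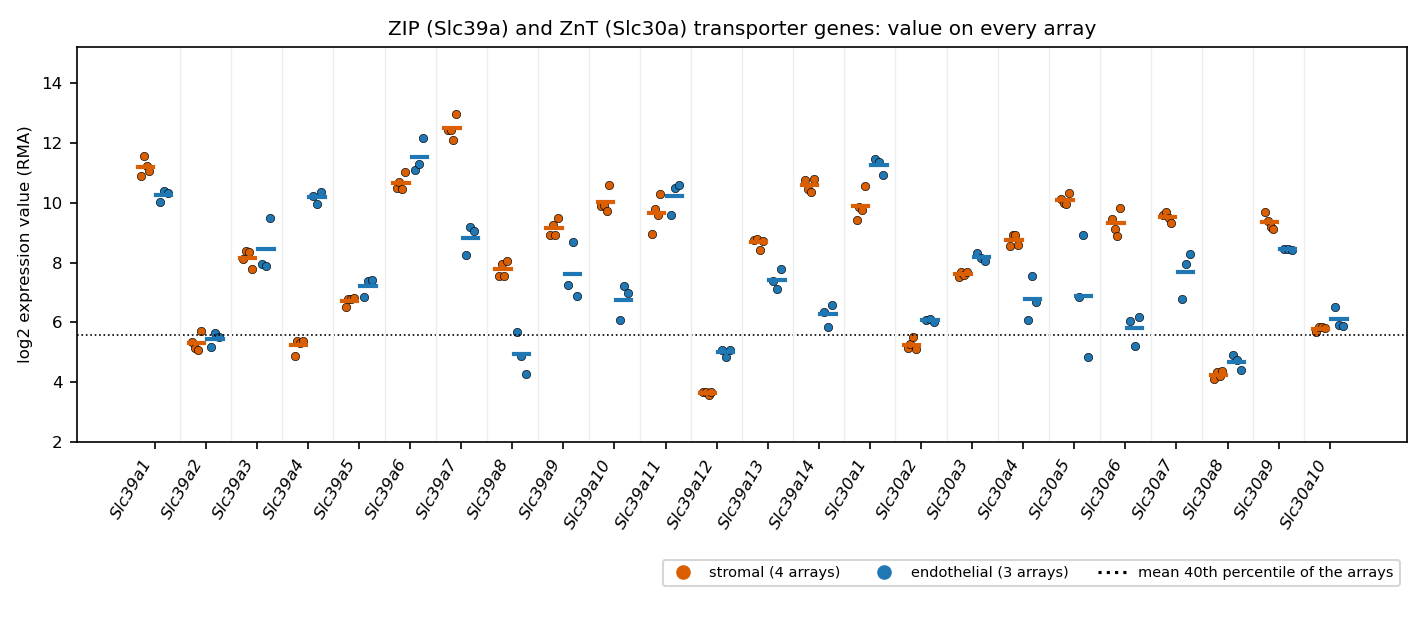
Log2 expression value of each ZIP (Slc39a) and ZnT (Slc30a) gene on every array. Points are arrays (stromal left, endothelial right for each gene), short bars are group means, and the dotted line is the mean 40th percentile of the arrays. Slc39a4 and Slc30a1 have their higher values on the endothelial arrays, and Slc30a5 has the widest endothelial spread of this panel.

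Metallothioneins are small proteins that bind zinc and copper, and their genes are switched on by MTF1 through metal response elements. Neither gene was called, but both fell into the same pattern on the stromal arrays. Mt1 lay at 8.52, 9.87, 9.91 and 8.53 on stromal 1 to 4, against 8.17, 8.70 and 7.65 on endothelial 1 to 3. Mt2 lay at 8.63, 9.77, 9.70 and 8.72 on the stromal arrays, against 9.70, 8.72 and 8.89 on the endothelial arrays. In both genes stromal 2 and 3 were well above stromal 1 and 4. The populations overlapped, and the differences were 1.03 for Mt1 (adjusted p = 0.0660) and 0.10 for Mt2 (adjusted p = 0.824). Mt1 passed when stromal 1, stromal 4 or endothelial 2 was left out, at 1.26, 1.26 and 1.3. Over 18 alternatives the Mt1 difference ran from 0.39 to 1.52, and it passed in 5 of them. The Mt1 probe set used carries a suffix for matches to several transcripts. A second Mt1 probe set differed by 0.59 and was not called. Mtf1 itself lay at 9.18, 9.41, 9.25 and 9.75 on the stromal arrays, against 9.72, 9.43 and 9.16 on the endothelial arrays (a difference of -0.04, adjusted p = 0.877). Its 4 tested probe sets differed by -1.33, which was called, -0.54, -0.04 and 0.45. The probe sets used for Mtf1 and Slc30a1 did not place stromal 2 and 3 above stromal 1 and 4, but some other probe sets of these genes did. The second one of Slc30a1 lay at 7.28, 7.67, 7.61 and 7.27 on stromal 1 to 4, against 8.5, 8.65 and 8.64 on endothelial 1 to 3. The called Mtf1 probe set lay at 7.58, 7.80, 7.99 and 7.35, against 8.62, 8.92 and 9.5. A further tested Mtf1 probe set did not have this order, at 7.88, 7.86, 8.24 and 7.65 on stromal 1 to 4. Stromal 2 and 3 were also above stromal 1 and 4 in Ireb2 (8.34, 8.65, 8.54 and 8.30), Hmox1, Steap3, Slc39a1, Slc39a3, Slc30a4 and Atp7a. The order is therefore not particular to the metallothionein genes, Mtf1 and Slc30a1.

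**Figure D4:**
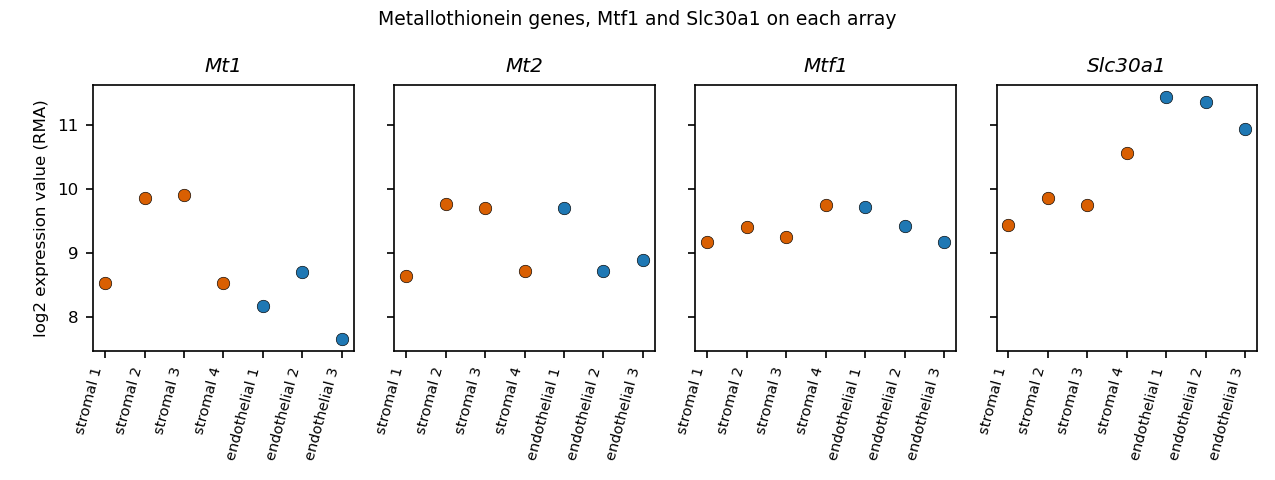
Log2 expression value of Mt1, Mt2, Mtf1 and Slc30a1 on each of the 4 stromal and 3 endothelial arrays. Points are single arrays. Mt1 and Mt2 are both higher on stromal 2 and 3 than on stromal 1 and 4, and Slc30a1 is higher on all 3 endothelial arrays.

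The promoter windows of the metallothionein genes and of Slc30a1 are shown because MTF1 is known to act on all 3 genes, of which only Slc30a1 was called. Each window is 300 bases of RefSeq on GRCm38.p6, 250 before and 50 after the annotated start, and capitals mark the metal response element core, searched as TGCACNC and TGCGCNC on both strands. The Mt1 window is chr8:94178839-94179138, the Mt2 window chr8:94172368-94172667 and the Slc30a1 window chr1:191906531-191906830, all on the plus strand.
Mt1: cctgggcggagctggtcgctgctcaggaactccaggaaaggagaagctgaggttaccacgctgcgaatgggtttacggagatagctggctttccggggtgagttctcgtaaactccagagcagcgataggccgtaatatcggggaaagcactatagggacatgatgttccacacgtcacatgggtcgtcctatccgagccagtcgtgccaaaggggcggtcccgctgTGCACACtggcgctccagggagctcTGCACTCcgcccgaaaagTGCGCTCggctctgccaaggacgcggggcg
Mt2: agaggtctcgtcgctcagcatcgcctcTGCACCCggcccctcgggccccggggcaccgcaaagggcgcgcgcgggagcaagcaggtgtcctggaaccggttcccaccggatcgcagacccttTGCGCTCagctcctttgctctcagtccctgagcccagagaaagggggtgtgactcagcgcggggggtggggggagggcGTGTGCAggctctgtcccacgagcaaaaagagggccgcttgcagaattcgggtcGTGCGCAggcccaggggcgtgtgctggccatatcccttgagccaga
Slc30a1: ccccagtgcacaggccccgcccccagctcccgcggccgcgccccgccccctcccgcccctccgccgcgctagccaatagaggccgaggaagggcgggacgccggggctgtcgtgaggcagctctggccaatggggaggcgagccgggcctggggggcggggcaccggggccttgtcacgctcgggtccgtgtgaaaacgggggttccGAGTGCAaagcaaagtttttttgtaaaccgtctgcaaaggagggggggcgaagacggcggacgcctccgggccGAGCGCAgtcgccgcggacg
The core occurred 3 times in the Mt1 window, 4 times in the Mt2 window and 2 times in the Slc30a1 window. Of all 32851 promoter windows in the table, 25.7% held at least 1 match, 7.11% at least 2, 1.97% at least 3 and 0.517% at least 4. Windows were used for 39 of the 46 genes, 56 in all because some genes have several starts. Of these, 20 windows of 19 genes (35.7% of the 56) held at least 1 match. The genes with no window used were Hmox1, Slc11a2, Slc30a8, Slc39a14, Slc39a4, Slc39a6 and Slc40a1. At least 3 matches were found in Mt1, Mt2, Slc30a10 and Slc30a4. The core of the antioxidant response element, TGACNNNGC, was in 16.1% of the 56 windows and 12.4% of all windows. That of the hypoxia response element, ACGTG, was in 30.4% and 19.6%, both strands searched for each. These strings can overlap a metal response element by a few letters, and a match is only a description of the letters in the window.

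The copper ATPases load copper onto enzymes in the secretory pathway and pump it out of the cell. Atp7a, the form of most tissues, lay at 8.49, 8.77, 9.19 and 8.36 on stromal 1 to 4, against 6.92, 8.35 and 6.49 on endothelial 1 to 3. Endothelial 2 was just under the lowest stromal array, while the others were clearly lower. The stromal level was 2.73-fold higher (a difference of 1.45, adjusted p = 0.0175). The call was missed without endothelial 1 (1.28, adjusted p = 0.0612), without endothelial 3 (1.07, adjusted p = 0.0525), with endothelial 1 alone (1.78, adjusted p = 0.0571) and under both other scalings (1.02 and 0.84). Atp7b, the liver form, lay at 5.49, 5.70, 5.73 and 5.66 on the stromal arrays, against 6.96, 5.87 and 6.56 on the endothelial arrays. The stromal arrays were close to the floor and below all endothelial arrays, and the difference of -0.82 (adjusted p = 0.0226) did not reach the required size. It did without endothelial 2, at -1.12, with endothelial 1 alone, at -1.32, and with the mean of its probe sets, at -1.15. It was -0.57 without endothelial 1 and -0.44 after cyclic loess, and was not called in these. The other tested Atp7b probe set was called at -1.22.

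Probe sets of the same gene often gave different sizes. Of the 46 genes, 27 had more than 1 probe set, and in 19 of these more than 1 passed the filter. All tested probe sets pointed the same way in 11 of the 19, and none of the 19 had called probe sets in opposite directions. Among tested probe sets the widest gaps were in Steap4, Slc39a14 and Slc30a7, given above. The untested Cp probe set differed by 1.79, and the 2 Tfrc probe sets below the filter differed by -0.84 and -0.73 against -2.92 for the one used, with a mean of -1.50 over all 3. Tfrc is also a control transcript of the array, with probe sets at its 3 prime end, middle and 5 prime end. These lay at 4.23 to 4.41, 3.40 to 3.57 and 2.94 to 3.35 on the stromal arrays, against 4.48 to 4.87, 3.81 to 4.24 and 3.53 to 3.95 on the endothelial arrays. All 3 were below the 40th percentile of every array.

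**Figure D5:**
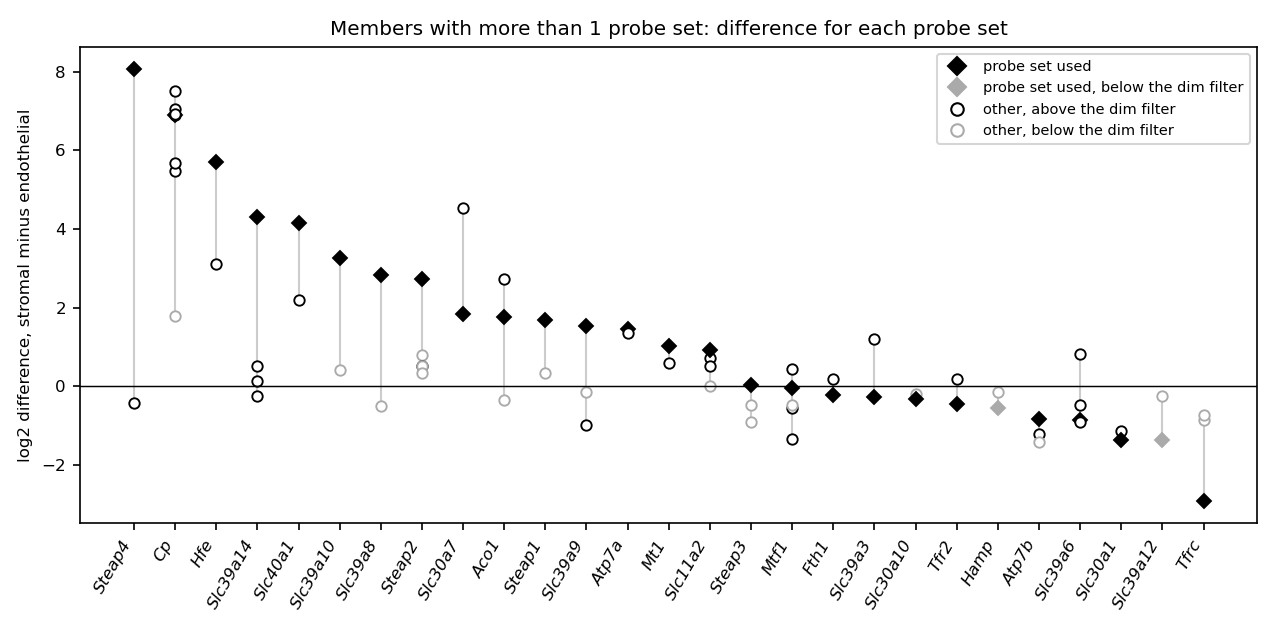
Difference in log2 expression value, stromal minus endothelial, for each probe set of the 27 genes with more than 1. Diamonds are the probe sets used and circles the others, with grey marking those below the dim filter. All 7 tested Cp probe sets lie between 5.47 and 7.50, while the 2 Steap4 probe sets lie at 8.08 and -0.42.

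Further genes, taken from lists of related functions outside the set, were counted in the same fit. In that fit 30.9% of all genes tested were called toward the stromal side and 16.1% toward the endothelial side. Of 14 tested genes for iron entry, release and mitochondrial use, 3 were called toward the stromal side (21.4%) and 2 toward the endothelial side (14.3%), shares not above those of all genes. The membrane ferroxidase gene Heph was higher by 5.16 (9.76 against 4.60 on average, adjusted p = 8.16e-07), and Scara5, which encodes a ferritin receptor, by 4.58. Both had endothelial means at the floor. Fbxl5, which encodes the iron-sensing partner that marks iron regulatory proteins for degradation, was higher by 1.75 with overlapping arrays. Ncoa4, which encodes the receptor that takes ferritin to the lysosome, and the ferroxidase gene Hephl1 stood at -1.38 and -1.28, the second from a stromal mean at the floor.

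Of 11 hepcidin regulators tested, 6 were called toward the stromal side (54.5%, beside 30.9% of all genes) and 2 toward the endothelial side (18.2%, beside 16.1%). Bmp6, which encodes the ligand that raises hepcidin in the liver, was higher by 7.26 (13.23 against 5.97 on average, adjusted p = 2.54e-07). Neo1, which encodes the hemojuvelin partner neogenin, and the inhibitory Smad6 and Smad7 were higher by 4.44, 4.27 and 2.60. The endothelial mean of Smad6 was at the floor. Hjv, the hemojuvelin gene, and Bmp2, a further ligand gene, stood at -1.70 and -1.29, the first from a stromal mean at the floor. Of 10 haem transport and breakdown genes, 6 were called toward the stromal side (60%) and 1 toward the endothelial side (10%). The first included the exporter gene Abcg2 at 5.19, the haemopexin receptor gene Lrp1 at 4.44, the haptoglobin gene Hp at 4.17 and Pgrmc1, which encodes a haem-binding membrane protein, at 2.20. The biliverdin reductase gene Blvrb stood at -2.94. Among 14 iron-sulfur cluster assembly genes 7 were called toward the stromal side (50%) and none toward the endothelial side. The largest differences were 2.85 for Fdx1, which encodes a ferredoxin, 2.23 for Lyrm4, 1.87 for Ciao1 of the cytosolic assembly route and 1.70 for Isca2 of the mitochondrial one.

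Of 17 copper genes outside the set that were tested, 7 were called toward the stromal side (41.2%, beside 30.9% of all genes). Among them were the copper-dependent crosslinking enzyme genes Lox at 6.58 and Loxl1 at 4.32. The copper importer gene Slc31a1 at 2.11 and Sco1, which encodes a copper chaperone of mitochondria, at 2.16 had endothelial means at the floor. The 2 higher on the endothelial arrays (11.8%, beside 16.1%) were chaperone genes, Atox1, whose product hands copper to the copper ATPases, at -2.58 and Cox17, which serves cytochrome oxidase, at -1.60. Atox1 lay at 9.98, 10.59, 10.99 and 9.99 on stromal 1 to 4, against 12.91, 12.51 and 13.49 on endothelial 1 to 3. Atox1 and Atp7a therefore stood on opposite sides of the comparison, though the Atp7a call was missed under several alternatives given above. Atp7b, which was not called, stood on the side of Atox1 at -0.82. Of 8 tested genes on the zinc list, Znrf1 and Tmc6 (25% of the 8) were higher on the stromal arrays, both at 1.0. Tmem163, Trpm2 and Tmc8 (37.5%) were higher on the endothelial arrays, at -1.53, -1.16 and -1.14, the first from a stromal mean at the floor. Not every gene on this list is a gene of zinc transport or storage, and Znrf1 is not.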

How the data were processed

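The deposited table holds log2 expression values of 45101 probe sets on 7 arrays. Per the submitters' processing notes, Affymetrix Expression Console 1.1 and RMA were used by the authors. Which arrays were normalized together is not given in the sources used here. No 2 columns were identical. Arrays have no read depth, and the precision is limited by their number.

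Symbols came from the platform annotation. For each of 18193 genes, the brightest of its probe sets (mean of 7 arrays) was taken from 34945 with 1 symbol, controls left out. This choice and the 13995 genes tested were kept when arrays were left out. Genes with under 3 arrays above their own 40th percentile (4198) were set aside. limma 3.58.1 in R 4.3.3 (lmFit, eBayes, no covariates) gave differences, and the same fit over probe sets gave those of single probe sets. The procedure was tested on simulated data. No fold is given where a group mean lay below the median of its arrays.

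Array-wise values are given for the called genes that differed most (up to 12 per direction) and for a fixed list of key genes, of which Trf and Ftl1 had none. Up to 4 called genes in each direction are named per pathway list. Slc30a1's window was chosen for printing after its values were seen. The genes, lists and alternatives were chosen with earlier results of these data known. Promoter sequences are from RefSeq (GRCm38.p6).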

Additional observations from a re-analysis of the deposited data

Results flagged for a closer look

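In 3 of the 42 genes tested, 1 stromal array lay apart from the other 3, by a gap that is large against the range of the 4 arrays. Chance gives this in about 1 in 20 groups of 4, and the 3 endothelial arrays are too few for the same check. Slc39a4 was at 4.89 on stromal 1 and at 5.32 to 5.37 on the others, all at the floor of the arrays. Slc39a5 was at 6.50 on stromal 1 and at 6.79 to 6.80 on the others. Slc39a13 was at 8.41 on stromal 3 and at 8.73 to 8.78 on the others.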

How the results depend on the processing

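All 23 called genes kept their direction under the 18 alternatives that re-estimate their difference, where these gave a value, and 15 kept their call in each. The lost calls were those of Tfrc, Slc30a5, Aco1, Atp7a, Hmox2, Slc39a9, Slc39a13 and Steap2, with values in the report. The count of genes higher on the stromal arrays (20) was 13 when treat tested against a difference of 1, and 19 to 23 when 1 array was left out. The count higher on the endothelial arrays (3) was 1 with treat, 5 after a second quantile normalization, 7 after cyclic loess, 7 with the adjusted p alone, 5 without stromal 4 and endothelial 2 together, and 3 to 4 when 1 array was left out. Over all genes, treat gave 2220 and 855 in place of 4319 and 2252, and the adjusted p alone gave 4412 on the endothelial side. Replicate numbers are shared between the populations, but arrays of the same number did not deviate together (correlations of -0.0021, 0.035 and 0.12). With replicate number as a block 21 genes were called toward the stromal side and 3 toward the other, Mt1 being the addition (1.26).

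Signs turned only in genes that were not called. Steap3 (0.04) was -0.51 after a second quantile normalization, -0.42 after cyclic loess, -0.37 with the hybridisation-control block, -0.11 without stromal 4 and endothelial 2, and -0.22 to 0.24 when 1 array was left out. Mt2 (0.10) was -0.45, -0.51 and -0.50 under the first 3 of these and between -0.092 and 0.40 with 1 array left out. Mtf1 (-0.04) was between -0.18 and 0.10 with 1 array left out. Slc39a3 (-0.28) was 0.46 with the mean of its probe sets, 0.20 with the hybridisation-control block and between -0.56 and 0.24 with 1 array left out. Fth1 was 0.19 and Slc30a10 0.071 after cyclic loess, and Slc39a11 was 0.072 with the hybridisation-control block. The cause of these changes was not tested. Differences of genes at the floor or near the highest values are compressed.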

Other observations

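The endothelial arrays varied more among themselves than the stromal arrays. Their SD was the larger in 30 of the 42 genes tested (71.4%), beside 76.3% of all genes tested. The median SD of the 42 genes was 0.45 on the endothelial arrays and 0.23 on the stromal arrays.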
